A study of Mus musculus with 9 samples.

Results

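The genes described are 8 long noncoding transcripts of mouse basophils: the microRNA host genes Mir155hg, Mir22hg, Mir17hg and Dleu2, the small nucleolar RNA (snoRNA) host genes Gas5 and Snhg1, and the abundant nuclear RNAs Neat1 and Malat1. They were chosen by symbol, with earlier results of these data known, so counts among them are description only. All 8 of 8 symbols were present in a count table of 35673 gene symbols, and all 8 passed the filter on low counts that left 21341 genes for testing. The cells came from wild-type C57BL/6J bone marrow grown for 7 days with interleukin-3 (IL-3, 0.3 ng/mL) and then enriched magnetically for CD49b. Each of the 9 libraries was made from 10000 cells, 3 libraries for each of 3 conditions lasting 4 hours. Difamilast cells were given 10 ng/mL IL-3 and 10 ng/mL IL-33 together with 3 µM difamilast, an inhibitor of phosphodiesterase 4, the enzyme family that degrades cAMP in immune cells. Stimulated cells received both cytokines at these doses with the vehicle DMSO. Resting cells received PBS with DMSO. No group combined PBS with difamilast among the samples used here. Separate cultures or animals for the replicates are not stated in the labels. Thus p-values reflect the spread among these libraries alone, and that spread may be technical.

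MicroRNA host genes are transcribed as long RNAs from which the nuclease Drosha cuts a hairpin, and Dicer then trims the hairpin to a mature microRNA that guides Argonaute proteins to messenger RNAs through its seed. snoRNA host genes carry snoRNAs in their introns, where these guides for ribosomal RNA modification are released after splicing, while the spliced host RNA is often degraded by nonsense-mediated decay. Neat1 is the scaffold of nuclear bodies called paraspeckles, and Malat1 resides in nuclear speckles. RNA was captured on oligo-dT beads, and mature microRNAs and snoRNAs carry no poly(A) tail. The values below are therefore levels of host transcripts and do not measure the small RNAs.

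Mir155hg, Mir22hg, Mir17hg and Dleu2 hold the genes of the microRNAs below, which are shown to name what each host transcript carries. Counts on spliced hosts do not measure a microRNA cut from an intron, as miR-15a is from Dleu2. RefSeq (build GRCm38.p6) gave 10 mature sequences from these 4 hosts, printed 5′ to 3′ with the seed (bases 2 to 8) in capitals.
mmu-miR-155-5p: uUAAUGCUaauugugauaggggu
mmu-miR-22-3p: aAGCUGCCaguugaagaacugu
mmu-miR-17-5p: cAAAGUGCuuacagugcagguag
mmu-miR-20a-5p: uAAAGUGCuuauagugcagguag
mmu-miR-18a-5p: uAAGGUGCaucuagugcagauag
mmu-miR-19a-3p: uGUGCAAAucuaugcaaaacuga
mmu-miR-19b-3p: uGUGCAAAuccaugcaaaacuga
mmu-miR-92a-3p: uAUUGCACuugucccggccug
mmu-miR-15a-5p: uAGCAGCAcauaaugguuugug
mmu-miR-16-5p: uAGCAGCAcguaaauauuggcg
These 10 microRNAs have 7 different seeds. miR-17 and miR-20a share a seed, miR-19a and miR-19b share another, and so do miR-15a and miR-16, the pair inside Dleu2.

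The hairpins of miR-155 and miR-22 are shown because these small RNA genes drew enough reads to be tested on their own, Mir155 in stimulated libraries alone. The mature strands that RefSeq annotates are in capitals. The miR-155 hairpin lies at chr16:84714140-84714204 on the plus strand and the miR-22 hairpin at chr11:75463716-75463810 on the plus strand (GRCm38.p6).
Mir155: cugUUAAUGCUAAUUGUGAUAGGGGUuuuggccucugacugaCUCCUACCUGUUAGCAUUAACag
Mir22: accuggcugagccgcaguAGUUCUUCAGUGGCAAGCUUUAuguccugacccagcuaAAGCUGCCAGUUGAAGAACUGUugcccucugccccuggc

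Each position here follows the GENCODE vM21 annotation of GRCm38. Mir155hg spans 84703167 to 84715245 on chromosome 16, plus strand, and its microRNA lies in an exon. Mir22hg spans 75461539 to 75466676 on chromosome 11, plus strand, again with an exonic microRNA. Mir17hg spans 115042879 to 115046727 on chromosome 14, plus strand, and all 6 microRNA genes of its cluster lie within the longer of its 2 annotated exons. Dleu2 spans 61602839 to 61682373 on chromosome 14, minus strand; its Mir15a lies in an intron, and 13 of the 93 bases of Mir16-1 reach into an annotated exon. Neat1, 5824708 to 5845478, and Malat1, 5795690 to 5802672, are neighbours on the minus strand of chromosome 19, with a gap of 22035 bases between them. Gas5 spans 161034422 to 161038539 on chromosome 1 and Snhg1 8723475 to 8726443 on chromosome 19, both on the plus strand. The annotated snoRNA genes of Gas5 and Snhg1 fall on bases that are exonic in at least 1 of their 25 and 18 transcript models.

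**Figure D1:**
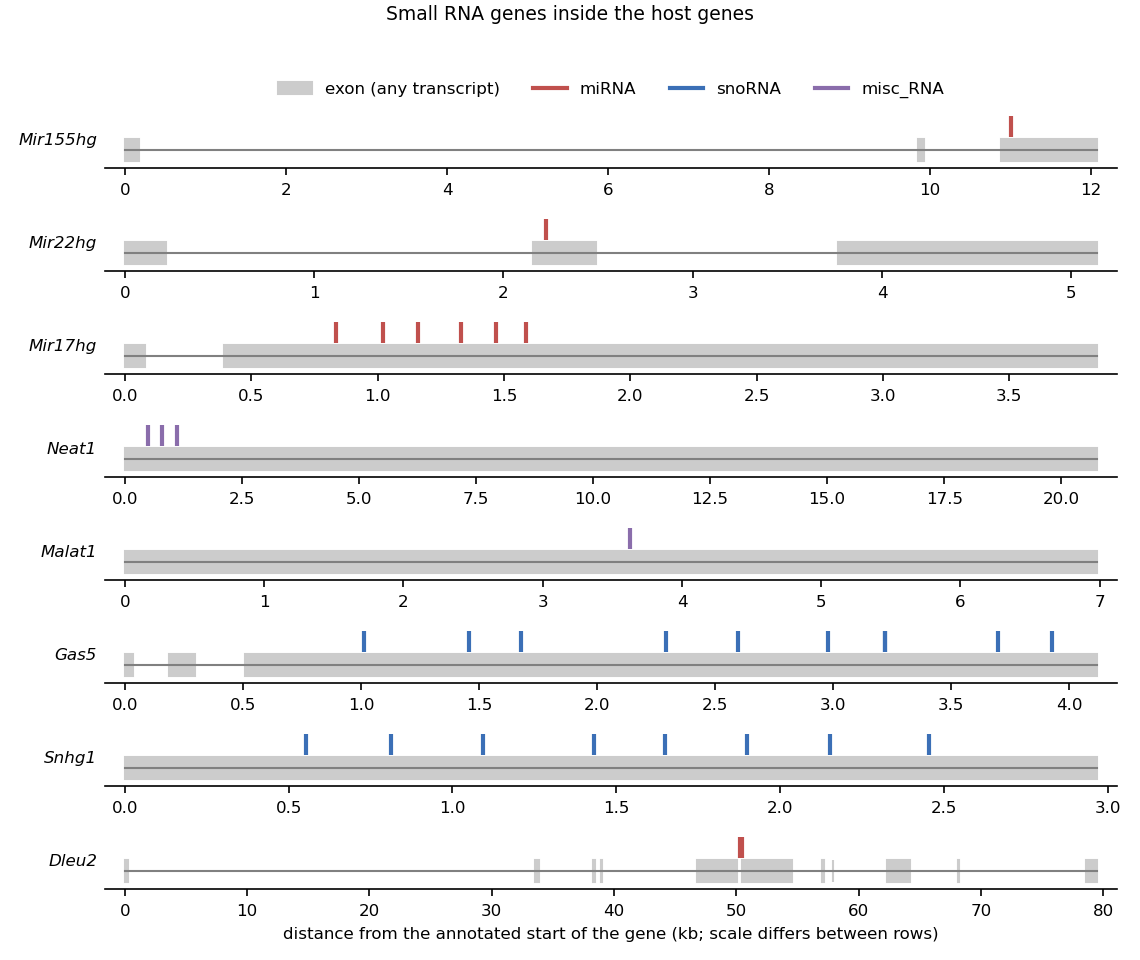
Each row is a gene drawn from its annotated start (left) to its end in kb, on its own scale. Grey boxes are bases exonic in any transcript model. Ticks mark microRNA genes (red), snoRNA genes (blue) and entries typed misc_RNA (purple) on the same strand. Mir155hg and Mir22hg each hold 1 microRNA tick, Mir17hg holds 6, Dleu2 holds 2 that merge at this scale, and the snoRNA ticks of Gas5 and Snhg1 run along most of the gene.

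The libraries held 24812305 to 30299575 counts in difamilast, 11798711 to 38098584 in stimulated and 6261446 to 14795353 in resting cells. Raw counts of the groups are thus not on an equal footing. No pair of libraries within a group agreed within sampling noise (chi-square per degree of freedom from 4.54 to 48.7). Mitochondrially encoded genes took 1.19% to 1.42% of counts in difamilast, 1.51% to 1.67% in stimulated and 1.82% to 2.71% in resting libraries, without overlap, and the part of this in the results was not tested. Of the basophil markers listed (among them Mcpt8, Il3ra, Fcer1a and Cd200r3), all 10 were found, and their summed level ran from 13280 to 13610 CPM (counts scaled by effective library size) in difamilast, 11460 to 12260 in stimulated and 6827 to 7768 in resting libraries. The summed level of 10 monocyte and macrophage markers ran from 4378 to 4732, 4541 to 4802 and 5884 to 7306 CPM in the same order. No marker of either list was at 0. With stimulation 5 of the 10 basophil markers rose and 2 fell, but 3 rose and 3 fell when library totals alone set the scale. Of the monocyte and macrophage markers 7 fell with stimulation and none rose, beside 16.4% of tested genes that fell. The part of either list in the results was not tested. Summed mast cell markers (7 found) ran from 1905 to 2289 CPM in difamilast, 2027 to 2183 in stimulated and 1004 to 1387 in resting libraries, while neutrophil, NK and T cell, and B cell markers summed to at most 121 CPM in any library. In these bulk libraries, fewer cells of a type and less RNA per cell cannot be told apart.

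Levels are given as CPM after TMM scaling, which sets each library against the trimmed mean of its gene ratios. Scaling mattered for comparisons with resting cells. The TMM factors were 0.85 to 0.92 in difamilast, 0.87 to 0.89 in stimulated and 1.23 to 1.32 in resting libraries. With library totals alone, the median log2 fold change of all tested genes was shifted by -0.53 in stimulated against resting cells and by -0.51 in difamilast against resting cells, and by 0.02 in difamilast against stimulated cells. The rises with stimulation reported below are relative to the typical gene. Results under library totals stand beside them, as values or calls for the 8 genes and the tested small RNA and misc_RNA entries inside them. Counts under library totals are given for most lists.

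Per kilobase of the longest annotated transcript, Malat1 was the most abundant of the 8 in resting cells at 508 ± 47.4 CPM per kb (SD, n = 3), followed by Neat1 at 83.9 ± 6.26. Mir22hg at 35.4 ± 1.48 and Gas5 at 30.9 ± 5.27 came next and differed by less than the SD of Gas5. Mir155hg had 17.7 ± 2.45, Dleu2 9.13 ± 0.616, Snhg1 6.51 ± 1 and Mir17hg 4.01 ± 0.0777 CPM per kb. In stimulated cells Mir155hg, at 290 ± 31.7 CPM per kb, stood above Neat1 at 152 ± 2.91, and in difamilast cells the values were 187 ± 26.9 and 177 ± 8.26, closer than their spread. The order of the genes depends on the lengths used. Neat1 was divided by its longest transcript of 20771 bases, and a shorter isoform as divisor would raise its value. The longest models of Gas5 and Snhg1 may likewise be longer than their spliced forms. By mean CPM over the 9 libraries, Malat1 ranked 15 and Neat1 27 among 21341 tested genes. The 8 genes together took between 0.696% and 0.875% of the counts of a library, nearly all of it from Malat1 and Neat1.

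Stimulated and resting cells, both in vehicle, were compared for the effect of the cytokines. Of the 8 genes, 7 rose and none fell, beside 15.3% of all tested genes that rose and 16.4% that fell (31.7% changed). The same 7 did not overlap between groups, all higher, as was so for 43.7% of tested genes (23.2% higher). The median log2 fold change was 0.69 over the 8 genes and 0.06 over all tested genes. With library totals alone, under which 47.2% of tested genes changed, 4 of the 8 were called higher (6.21% of tested genes were) and 1 lower (41.0% were). The comparison of difamilast with stimulated cells asks what the inhibitor changed in activated cells. There, 3 of the 8 genes fell, Mir155hg, Dleu2 and Mir17hg, and none rose, beside 1.24% of tested genes that fell and 3.44% that changed. Of the genes called here 64.1% were higher, but 47.5% without difamilast replicate 3, 51.4% without resting replicate 1 and 49.7% with only the 2 groups fitted. Another 2, Neat1 and Snhg1, reached an unadjusted p under 0.05 without passing. Groups did not overlap for 4 of the 8 genes, 1 higher and 3 lower, beside 24.8% of tested genes (12.2% higher and 12.6% lower). The median log2 fold change was -0.17, against -0.003 over all tested genes. No call among the 8 remained without stimulated replicate 2, and none remained without difamilast replicate 1. With library totals alone, 2 of the 8 were called lower and none higher, beside 1.16% and 2.08% of tested genes (3.24% in all). The comparison of difamilast with resting cells shares libraries with both comparisons above. In it, 5 of the 8 were called higher and none lower, beside 32.8% of tested genes called (16.4% higher and 16.4% lower). The same 5 did not overlap, all higher, beside 42.9% of tested genes (23.0% higher and 19.8% lower). With library totals alone, 4 were called higher and 2 lower there, beside 7.06% and 44.4% of tested genes (51.4% in all). Adjusted p-values come from the quasi-likelihood test of edgeR, with the Benjamini-Hochberg method over all 21341 tested genes, and calls are at 0.05.

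**Figure D2:**
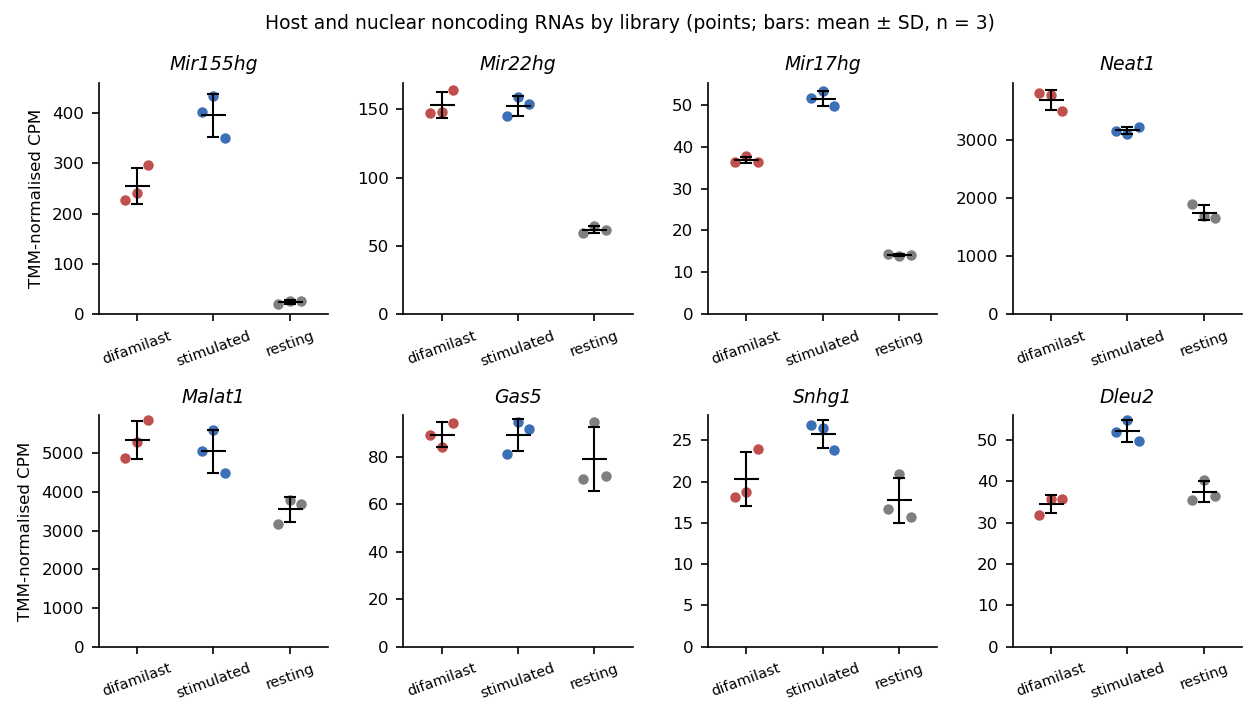
Level of each gene in TMM-normalised CPM (linear axis from 0) in difamilast, stimulated and resting libraries; points are libraries, and black bars are the mean and SD of 3. Mir155hg, Mir17hg and Dleu2 are lower in every difamilast library than in any stimulated library, and Gas5 overlaps in all 3 groups.

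Mir155hg, the primary transcript of miR-155, a microRNA known to be induced by NF-kB and to restrain Socs1 in immune cells, had the largest change of the 8 with stimulation. It stood at 227, 241 and 296 CPM in difamilast, 402, 434 and 349 CPM in stimulated and 20.3, 25.7 and 26.3 CPM in resting libraries. The 3 groups did not overlap: stimulated libraries were highest, difamilast libraries lay between, and resting libraries were far below both. The means were 255 ± 36.7 CPM in difamilast, 395 ± 43.2 in stimulated and 24.1 ± 3.33 in resting cells (SD, n = 3 each). Mir155hg was 16.4-fold higher in stimulated than in resting cells (log2 fold change 4.04 ± 0.15 SE, adjusted p = 3.88e-11), at percentile 99.8 of all tested genes, and 3.52 on the log2 scale under library totals. With difamilast it was 1.55-fold lower than in stimulated cells (log2 fold change -0.63 ± 0.13, adjusted p = 0.0111). It was still 10.6-fold higher in difamilast than in resting cells (adjusted p = 1.64e-10). The call with difamilast was lost without stimulated replicate 1 (adjusted p = 0.0721) or 2 (0.0903) and without difamilast replicate 1 (0.0899) or 2 (0.0903), while the log2 fold change ran from -0.76 to -0.55 over the 20 alternatives tried.

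The separate entry for the Mir155 hairpin held few reads: 7, 8 and 5 counts in difamilast, 13, 26 and 21 in stimulated and 0, 3 and 0 in resting libraries. Scaled to the library, every difamilast library lay below every stimulated library, and every resting library was lower still. Against resting cells the entry was higher in stimulated cells (log2 fold change 3.46 ± 0.79 SE, adjusted p = 0.00332). Under library totals the value was 2.97 (adjusted p = 0.006). The entry passed the filter on low counts through its stimulated libraries alone. Its p-values are therefore not independent of its high level there, and are given as description only. Against stimulated cells it did not pass in difamilast cells (log2 fold change -1.69 ± 0.56, adjusted p = 0.143). As background, a mature microRNA has no tail for oligo-dT to bind.

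Mir17hg carries the miR-17-92 cluster, known to be driven by MYC and to favour survival and division of blood cells. Its level was 36.4, 37.7 and 36.3 CPM in difamilast, 51.5, 53.2 and 49.6 CPM in stimulated and 14.5, 13.9 and 14.2 CPM in resting libraries. The groups were tight and separate, in the same order as for Mir155hg. Stimulation raised it 3.62-fold (log2 fold change 1.86 ± 0.11 SE, adjusted p = 7.73e-09; 1.33 under library totals). With difamilast it was 1.40-fold lower than in stimulated cells (log2 fold change -0.48 ± 0.11, adjusted p = 0.017), and 2.59-fold higher than in resting cells. This fall kept its direction in all 20 alternatives tried (log2 fold change -0.53 to -0.45), but its call was lost with library totals (adjusted p = 0.0528), without a filter on low counts (0.051), with every library thinned to the shallowest (0.227), and without stimulated replicate 1, 2 or 3 or difamilast replicate 1 or 2 (0.066 to 0.125). The 5 microRNA entries of the cluster that the table lists held 78 reads in all and did not pass the filter on low counts. The entry for Mir17 itself was not analysed here.

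Mir22hg carries miR-22, a microRNA known for its part in myeloid differentiation and for targeting Tet2. It was measured at 147, 148 and 164 CPM in difamilast, 145, 159 and 154 CPM in stimulated and 59.4, 64.6 and 61.9 CPM in resting libraries. Difamilast and stimulated libraries covered the same range, and both stood clear of resting libraries. Mir22hg was 2.46-fold higher in stimulated than in resting cells (log2 fold change 1.30 ± 0.10 SE, adjusted p = 8.82e-08; 0.78 under library totals). Between difamilast and stimulated cells its log2 fold change was 0.00 ± 0.10 (adjusted p = 0.993). The Mir22 hairpin entry held 69, 89 and 54 counts in difamilast, 46, 92 and 124 in stimulated and 13, 19 and 9 in resting libraries. That entry rose with stimulation (log2 fold change 1.83 ± 0.29, adjusted p = 0.000181; 1.31 under library totals, adjusted p = 0.00158) and did not pass with difamilast (-0.39 ± 0.24, adjusted p = 0.497).

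Mir22hg shares 206 exonic bases on the same strand with Tlcd2, a protein-coding gene that starts 176 bases downstream. Tlcd2 also rose with stimulation, 2.84-fold (log2 fold change 1.51 ± 0.13 SE, adjusted p = 2.64e-07; 0.98 under library totals), with 27.5, 28.7 and 28.2 CPM in difamilast, 31.6, 31 and 32.6 CPM in stimulated and 11.5, 10.2 and 11.9 CPM in resting libraries. Counts of each may hold reads of the other, and the share was not tested. Wdr81, which lies next to this pair on the other strand, was 1.61-fold lower in stimulated than in resting cells (log2 fold change -0.68, adjusted p = 0.00882). Of 13 tested neighbours of the 8 genes, 2 rose and 4 fell with stimulation (1 and 10 under library totals), and 1 rose with difamilast.

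Dleu2 is the host of miR-15a and miR-16-1, which are known to lower Bcl2 and cyclin D messages, and the human gene lies in a region often deleted in chronic lymphocytic leukaemia. Its level was 31.9, 35.8 and 35.6 CPM in difamilast, 51.9, 54.8 and 49.7 CPM in stimulated and 35.5, 40.3 and 36.5 CPM in resting libraries. Stimulated libraries stood above all others, and difamilast and resting libraries overlapped. Against resting cells Dleu2 was 1.39-fold higher in stimulated cells (log2 fold change 0.48 ± 0.11 SE, adjusted p = 0.00429), but under library totals the value was -0.05 (adjusted p = 0.782), and the call was also lost with thinned libraries (adjusted p = 0.155). With difamilast it was 1.51-fold lower than in stimulated cells (log2 fold change -0.60 ± 0.11, adjusted p = 0.00509), and library totals gave -0.58 (adjusted p = 0.0102). The call with difamilast was lost with thinned libraries (adjusted p = 0.23), without stimulated replicate 2 (0.0507) and without difamilast replicate 1 (0.0535). Between difamilast and resting cells the log2 fold change was -0.12 ± 0.11 (adjusted p = 0.438), but with library totals Dleu2 was called lower in difamilast cells (-0.63, adjusted p = 0.000447).

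Trim13, a ubiquitin ligase gene, overlaps the far end of Dleu2 on the opposite strand by 3108 bases without shared exons. It had 5.52, 5.19 and 4.79 CPM in difamilast, 4.57, 6.11 and 3.83 CPM in stimulated and 5.66, 7.76 and 6.08 CPM in resting libraries, and passed in neither comparison, though with library totals it was called lower in stimulated than in resting cells (log2 fold change -0.95, adjusted p = 0.00182). The other tested genes inside Dleu2, Kcnrg, Gm27010 and Gm26916, passed in neither comparison, except that with library totals Gm26916 was called lower with stimulation (adjusted p = 0.0455). Counts of Dleu2 for each count of Trim13 were 5.78, 6.89 and 7.43 in difamilast, 11.4, 8.96 and 13 in stimulated and 6.27, 5.19 and 6 in resting libraries. This ratio does not depend on library scaling, and it was higher in every stimulated library than in any other library. The mean log2 ratio differed by -0.72 between difamilast and stimulated cells and by 0.92 between stimulated and resting cells. Each had p = 0.1 by exact permutation (two-sided), a floor set by having 3 libraries a group, and adjusted p = 0.16 over 8 such ratio tests.

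Snhg1, a host of C/D box snoRNAs in its introns, had 18.1, 18.8 and 24 CPM in difamilast, 26.9, 26.5 and 23.8 CPM in stimulated and 16.7, 20.9 and 15.7 CPM in resting libraries. Stimulated libraries stood above resting libraries, while difamilast replicate 3 reached into the stimulated range. Snhg1 was 1.44-fold higher in stimulated than in resting cells (log2 fold change 0.52 ± 0.16 SE, adjusted p = 0.0185). Under library totals that value was 0.00 (adjusted p = 0.994), and the call was also lost with thinned libraries (adjusted p = 0.211), without resting replicate 3 (0.0864) and without stimulated replicate 1 (0.0839) or 2 (0.0647). With difamilast the log2 fold change was -0.34 ± 0.15 (adjusted p = 0.307), and it kept that sign in all 20 alternatives tried (-0.48 to -0.19).

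Gas5, named growth arrest-specific for its build-up in cells that stop growing, had 89.4, 84.2 and 94.5 CPM in difamilast, 81.4, 94.6 and 91.6 CPM in stimulated and 70.6, 94.6 and 71.9 CPM in resting libraries. The 3 groups overlapped. It passed neither with stimulation (log2 fold change 0.17 ± 0.12 SE, adjusted p = 0.32) nor with difamilast (0.00 ± 0.12, adjusted p = 0.998). Under library totals Gas5 was called lower in stimulated (-0.35, adjusted p = 0.0301) and in difamilast cells (-0.33, adjusted p = 0.0348) than in resting cells. Zbtb37 overlaps the start of Gas5 by 428 bases on the opposite strand without shared exons, and was 1.48-fold lower in stimulated than in resting cells (log2 fold change -0.57 ± 0.12, adjusted p = 0.00192). No source used here gives the strand setting of the counting, so reads of opposite partners cannot be told apart from the counts.

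The ratio of Snhg1 to Gas5 counts was 0.202, 0.223 and 0.254 in difamilast, 0.331, 0.28 and 0.26 in stimulated and 0.237, 0.221 and 0.218 in resting libraries. Every stimulated library was above every other library. The log2 ratio differed by -0.36 between difamilast and stimulated cells and by 0.36 between stimulated and resting cells (exact permutation p = 0.1 each, the floor; adjusted p = 0.16). The snoRNA entries themselves held 138 reads over 8 entries inside Gas5 and 39 over 7 entries inside Snhg1, and none passed the filter on low counts.

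Snhg1 starts 106 bases from Slc3a2, a gene on the opposite strand that encodes the heavy chain of amino acid transporters. Slc3a2 had 1110, 1080 and 833 CPM in difamilast, 679, 652 and 698 CPM in stimulated and 710, 587 and 632 CPM in resting libraries. Every difamilast library was above all others. Slc3a2 rose 1.49-fold with difamilast (log2 fold change 0.58 ± 0.12 SE, adjusted p = 0.0116), while Snhg1 had the negative value given above. There were 0.0162, 0.0174 and 0.0288 counts of Snhg1 for each count of Slc3a2 in difamilast, 0.0396, 0.0406 and 0.0341 in stimulated and 0.0235, 0.0356 and 0.0248 in resting libraries. The mean log2 ratio differed by -0.92 between difamilast and stimulated cells, without overlap (exact permutation p = 0.1, the floor; adjusted p = 0.16). Stimulated and resting libraries overlapped in this ratio (difference 0.47, exact permutation p = 0.2).

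**Figure D3:**
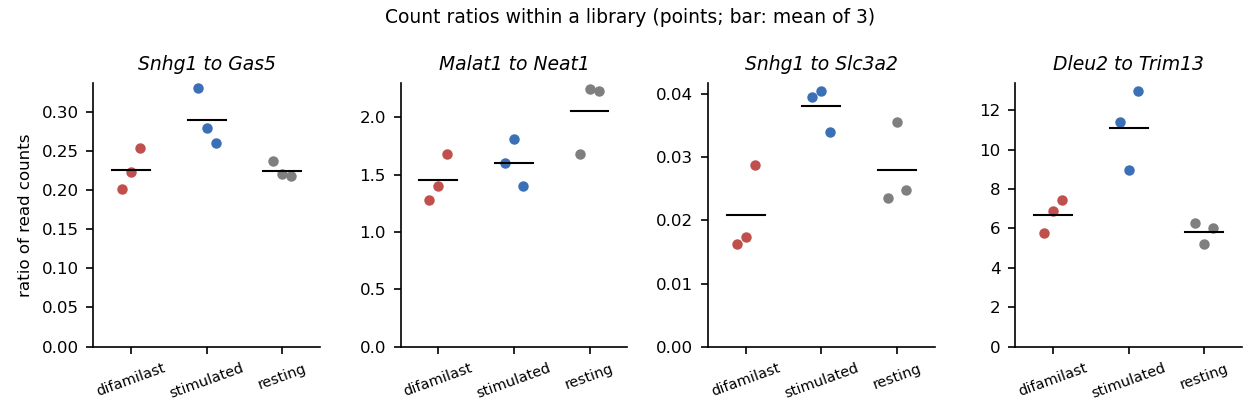
Ratios of read counts within a library (linear axes from 0) for 4 pairs of genes in difamilast, stimulated and resting libraries; points are libraries and bars are means of 3. The ratios of Snhg1 to Gas5 and of Dleu2 to Trim13 are highest in all 3 stimulated libraries, Snhg1 to Slc3a2 is lower in all 3 difamilast than in all 3 stimulated libraries, and Malat1 to Neat1 overlaps between difamilast and stimulated and between stimulated and resting libraries.

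Neat1 was measured at 3800, 3770 and 3490 CPM in difamilast, 3150, 3100 and 3220 CPM in stimulated and 1890, 1690 and 1650 CPM in resting libraries. The groups did not overlap, with difamilast libraries highest and resting libraries lowest. Neat1 was 1.81-fold higher in stimulated than in resting cells (log2 fold change 0.86 ± 0.10 SE, adjusted p = 6.58e-06), and under library totals the rise was 0.33 (adjusted p = 0.0305). With difamilast it did not pass (log2 fold change 0.22 ± 0.10, adjusted p = 0.291), except without resting replicate 1 (adjusted p = 0.0284). At 20771 bases, Neat1 is the longest of the 8 transcripts, and removal of the trend with transcript length left a log2 fold change of 0.09 between difamilast and stimulated cells (adjusted p = 0.703). In difamilast against resting cells it was 2.12-fold higher (log2 fold change 1.08 ± 0.10, adjusted p = 5.69e-07).

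The annotation places 3 short entries typed misc_RNA in the first 1193 bases of Neat1, the end that its short and long isoforms share. All their bases are exonic in Neat1, so their reads cannot be told apart from reads of Neat1 itself. These entries, Gm28006, Gm27505 and Gm27533, each rose with stimulation (log2 fold changes of 0.63, 0.52 and 0.88, adjusted p = 0.039, 0.0338 and 0.0058). Under library totals their log2 fold changes were 0.10, -0.009 and 0.35, and none of these calls held (adjusted p = 0.752, 0.975 and 0.235). With difamilast their log2 fold changes were 0.52, 0.52 and 0.13, and none passed (adjusted p = 0.244, 0.119 and 0.842). The table has a single Neat1 entry, so the isoforms were not separated.

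Malat1 had 4880, 5290 and 5850 CPM in difamilast, 5050, 5610 and 4500 CPM in stimulated and 3170, 3790 and 3680 CPM in resting libraries. Difamilast and stimulated libraries overlapped, and both stood above resting libraries. Malat1 was 1.42-fold higher in stimulated than in resting cells (log2 fold change 0.51 ± 0.12 SE, adjusted p = 0.00346), but as a share of all counts it was 0.446% to 0.497% in difamilast, 0.392% to 0.496% in stimulated and 0.418% to 0.466% in resting libraries, which overlap. Under library totals its log2 fold change was -0.01 (adjusted p = 0.945). With difamilast it was 0.08 ± 0.12 (adjusted p = 0.828). The ratio of Malat1 to Neat1 counts was 1.28, 1.4 and 1.68 in difamilast, 1.6, 1.81 and 1.4 in stimulated and 1.68, 2.25 and 2.23 in resting libraries, and neither comparison was separate (exact permutation p = 0.5 with difamilast and 0.2 with stimulation). The misc_RNA entry inside Malat1, Gm27694, whose bases are all exonic in Malat1, passed in neither comparison, with TMM scaling or with library totals.

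**Figure D4:**
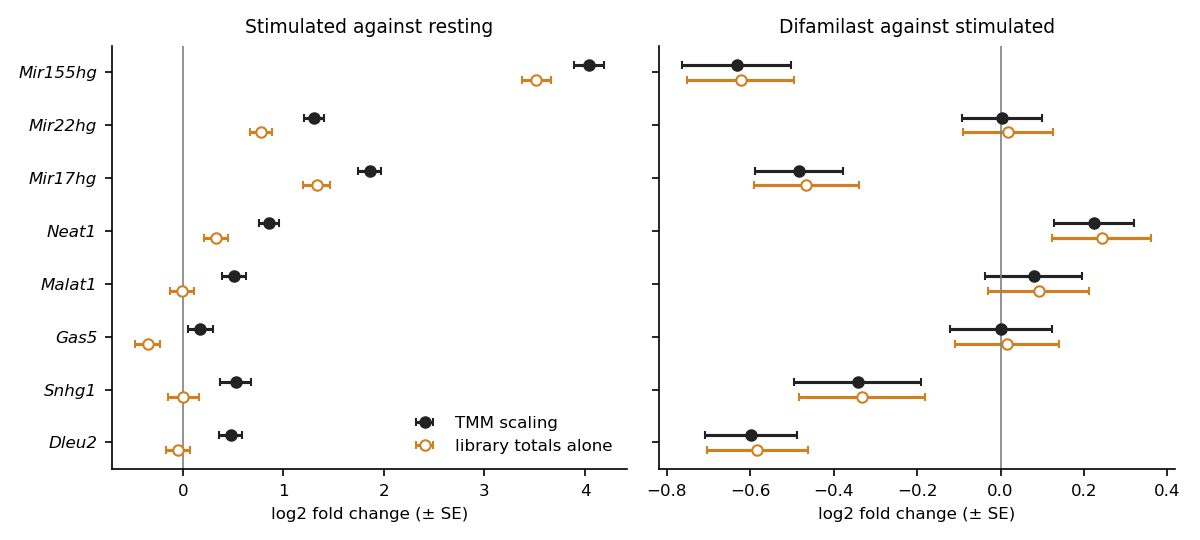
Log2 fold changes (± SE, all 9 libraries in the fit) of the 8 genes, stimulated over resting at left and difamilast over stimulated at right, with TMM scaling (filled) and with library totals alone (open). In the left panel all values move down together, by about the -0.53 of all genes, which puts Malat1, Snhg1 and Dleu2 at 0 and Gas5 below it; in the right panel the scalings nearly coincide.

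Because capture was by oligo-dT, runs of A inside a transcript can also be captured. Such runs were sought in the longest annotated transcript of each gene, and the longest runs of Malat1, Dleu2 and Neat1 are shown with 10 flanking bases and the run in capitals.
Malat1: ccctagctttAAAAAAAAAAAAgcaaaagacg
Dleu2: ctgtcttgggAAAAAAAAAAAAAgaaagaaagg
Neat1: gaaccattagAAAAAAAcgttaaatca
Malat1 and Dleu2 had a run of 8 or more A, of 12 and 13 bases, and the other 6 genes had none. The Malat1 run starts at base 6674 of 6983, toward the 3′ end, where the mature RNA is known to carry a genome-encoded A-rich tract in place of a poly(A) tail. The Dleu2 run starts at base 4046 of 4098. The longest run in Neat1 was 7. Which reads began at these runs was not tested.

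Promoter windows of 300 bases (250 before to 50 after the start) from RefSeq (GRCm38.p6) were available for 7 of the 8 genes, 8 windows in all; none was printed for Neat1. The windows of Gas5 (the later of its 2 starts) and Dleu2 are shown because they were the ones with a full cAMP response element, TGACGTCA, or a CACGTG box, the motif of MYC and related factors. Capitals mark motif letters.
Gas5, chr1:161034916-161035215, plus strand: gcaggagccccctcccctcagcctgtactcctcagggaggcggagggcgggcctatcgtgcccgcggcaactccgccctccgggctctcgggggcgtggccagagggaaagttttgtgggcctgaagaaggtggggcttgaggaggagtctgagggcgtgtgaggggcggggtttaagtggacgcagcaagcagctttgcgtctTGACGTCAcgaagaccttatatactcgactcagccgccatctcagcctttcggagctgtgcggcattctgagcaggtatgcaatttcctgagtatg
Dleu2, chr14:61682324-61682623, minus strand: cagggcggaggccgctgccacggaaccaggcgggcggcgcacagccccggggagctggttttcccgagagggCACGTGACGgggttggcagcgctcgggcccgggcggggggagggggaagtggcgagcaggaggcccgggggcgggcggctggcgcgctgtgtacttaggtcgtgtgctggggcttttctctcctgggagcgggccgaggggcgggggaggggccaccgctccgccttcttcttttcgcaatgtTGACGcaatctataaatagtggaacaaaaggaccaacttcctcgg
Motifs were sought on both strands. TGACGTCA was in 1 of the 8 windows, that of Gas5 just before the start, and in 1.79% of 32851 RefSeq promoter windows of the same length. Its shorter form TGACG, which lies within TGACGTCA, was in 4 of 8 windows (Gas5, Mir22hg, Dleu2 and Malat1) and in 20.8% of all windows. In Dleu2 the CACGTG box, which 7.15% of all windows hold, overlaps a TGACG. The letters of AP-1 (TGANTCA, in 7.81% of all windows), STAT5 (TTCNNNGAA, 8.3%) and NF-kB (8.46%) were in none of the 8 windows, which says only that these letters are not there. The RefSeq starts of Mir155hg and Mir17hg lie 9856 and 1511 bases downstream of the GENCODE starts, so their windows do not cover the start of the longer transcript. The 2 RefSeq starts of Gas5 lie 179 and 744 bases downstream of its GENCODE start. The TGACGTCA of Gas5 thus lies before the later RefSeq start, inside the GENCODE span of the gene.

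For each of the 8 genes, the 3 genes with the most similar pattern over the 9 libraries were taken from 7882 candidates, by the root mean square difference in log2 CPM after centring each gene on its own mean. Closest to Mir155hg were the chemokine gene Ccl3 (0.13), the cytokine gene Il6 (0.16) and Aldh1a3 (0.17), a retinoic acid-forming enzyme gene, against a median of 1.81 over all candidates. Ccl3, like Mir155hg, averaged less in difamilast than in stimulated cells, with 7336 CPM in difamilast, 11290 in stimulated and 740.3 in resting cells. Closest to Mir17hg were Zfp62, the kinase-family gene Irak3 and Glipr2 (0.07 to 0.10). Closest to Mir22hg were the monoamine transporter gene Slc18a2, Enah and Rbms1 (0.08 each). Dleu2 was closest to the transcription factor gene Klf3 (0.07), then Esrra and Ccdc88c (0.10 each). Klf3 averaged 66.3 CPM in difamilast, 95.5 in stimulated and 71.8 in resting cells. Snhg1 was closest to Nolc1 (0.07), which encodes a nucleolar phosphoprotein bound to snoRNA particles, then Eloc and Olfr539. Neat1 was closest to Lilr4b (0.04), Atp10a and Vmn1r229, Malat1 had Tut4 and Secisbp2l (0.07 each) among its closest, and Gas5, which varied little, was closest to Xpnpep3 (0.03), Ier3ip1 and Pola1. Genes of large families such as Lilr4b, Vmn1r229 and Olfr539 may hold reads of their relatives.

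Other noncoding snoRNA host genes were set beside Gas5 and Snhg1. Of 15 tested, 3 rose with stimulation and none fell, with a median log2 fold change of 0.04: Snhg15 (0.37, adjusted p = 0.0122), Snhg16 (0.73, adjusted p = 0.0166) and Snhg11 (0.50, adjusted p = 0.0489), which the annotation types as protein-coding. The direction of this group turned with scaling, since 9 of 15 were called lower and none higher under library totals, and 2 higher and 1 lower under RLE scaling. With difamilast, none of 15 passed in edgeR, 2 had an unadjusted p under 0.05, both lower, and DESeq2 and limma-voom each called 1 lower. The median was -0.20, and 12 of the 15 had a value below 0. Among 18 protein-coding genes that host snoRNAs, 2 rose with stimulation and 1 fell (none and 9 under library totals). Tpt1 rose by 0.94 (adjusted p = 0.00361) and Eif4a1 by 0.31 (adjusted p = 0.0214), and Eif4a2 fell by 0.39 (adjusted p = 0.0113). With difamilast none of these 18 passed in edgeR, 4 had an unadjusted p under 0.05, all lower, and their median was -0.17.

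Of 6 other noncoding microRNA host genes tested, 2 rose and none fell with stimulation (none higher and 1 lower under library totals). Mir99ahg rose by 1.00 on the log2 scale (adjusted p = 0.00155) and Mir100hg by 0.85 (adjusted p = 0.0375). With difamilast none of the 6 passed in edgeR, and 1 had an unadjusted p under 0.05. Of 4 genes first listed as hosts that hold no annotated small RNA gene on their strand, 2 rose and 1 fell with stimulation (1 and 2 under library totals), and 1 rose with difamilast. Among them Nfat5 rose by 2.29 (adjusted p = 9.7e-11) and Mirt2 fell by 1.61 (adjusted p = 0.000134) with stimulation, and Mirt2 rose by 0.96 with difamilast (adjusted p = 0.0399). Of 14 protein-coding hosts of microRNAs, 9 fell with stimulation and none rose, beside 16.4% of tested genes that fell. Their median was -0.53, and 13 were lower under library totals, beside 41.0% of tested genes. Pank1, host of miR-107, fell by 1.29 (adjusted p = 3.45e-06), Ctdsp2, host of miR-26a-2, by 1.20 (adjusted p = 8.43e-05) and Srebf2, host of miR-33, by 0.92 (adjusted p = 0.000138). With difamilast none of the 14 passed in edgeR, and 2 had an unadjusted p under 0.05. Mir155hg, Mir22hg and Mir17hg had values above every one of these 14 genes with stimulation.

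Of 13 tested genes listed as other nuclear or regulatory long noncoding RNAs, 3 rose with stimulation and 2 fell. Tug1 rose by 0.50 (adjusted p = 0.00216) and Ptgs2os by 2.94 (adjusted p = 0.00602), and Ptprv fell by 1.54 (adjusted p = 0.00178). Ptgs2os had 0, 0.11 and 0.253 CPM in resting libraries and at most 1.17 CPM in any library. It passed the filter on low counts through the groups given cytokines alone. Its p-value and call are therefore not independent of its level there, and are given as description only. Ptprv is known in mouse as a receptor phosphatase gene, and the gene types of this list were not checked. Under library totals 1 of the 13 was called higher and 5 lower. With difamilast, Ptgs2os2, which lies at the prostaglandin synthase locus Ptgs2, rose by 0.99 (adjusted p = 0.023). Rn7sk, the RNA that holds the elongation factor P-TEFb inactive, fell by 0.58 with difamilast (adjusted p = 0.008). Rn7sk was also called lower with stimulation (log2 fold change -0.34, adjusted p = 0.0333). As Rn7sk is not known to carry a poly(A) tail, its counts after oligo-dT capture may not follow its level.

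The proteins that work with these RNAs were counted in the same way. Of 16 tested genes of microRNA processing, 10 fell with stimulation and 1 rose, beside 16.4% of tested genes that fell and 15.3% that rose. Their median log2 fold change was -0.41. Under library totals 14 were lower and 1 higher, beside 41.0% and 6.21% of tested genes. Ago2, the Argonaute that cuts targets, had 109, 120 and 113 CPM in difamilast, 85.7, 86.1 and 91.4 CPM in stimulated and 238, 214 and 212 CPM in resting libraries. The groups did not overlap. Ago2 was 2.52-fold lower in stimulated than in resting cells (log2 fold change -1.33 ± 0.10 SE, adjusted p = 5.71e-08) and 1.30-fold higher in difamilast than in stimulated cells (0.37 ± 0.10, adjusted p = 0.046; 0.0843 under library totals). Ago1 fell by 1.03 (adjusted p = 4.66e-05). The gene that rose was Zc3h12a, which encodes Regnase-1, a nuclease of messenger RNAs and of microRNA precursors, at 303 CPM in difamilast, 328 in stimulated and 54.4 in resting cells (log2 fold change 2.59 with stimulation, adjusted p = 3.89e-10).

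Of 14 genes of paraspeckle proteins, partners of Neat1, 3 rose and 1 fell with stimulation (1 and 10 under library totals): Taf15 rose by 0.99 (adjusted p = 0.000593) and Nono, a core paraspeckle protein, fell by 0.65 (adjusted p = 0.0006). With difamilast none of the 14 passed in edgeR, and 1 had an unadjusted p under 0.05. Of 16 genes of snoRNA-protein particles, 2 rose with stimulation (none higher and 4 lower under library totals), Nop58 by 0.82 (adjusted p = 0.000112) and Nolc1 by 0.50 (adjusted p = 0.0118). With difamilast 1 of these 16 passed, Nhp2, which fell by 0.97 (adjusted p = 0.046), and 12 of 16 lay below 0 with a median of -0.28. Of 17 genes of nonsense-mediated decay, the pathway that removes spliced Gas5 and Snhg1, 4 rose and 1 fell with stimulation (none higher and 8 lower under library totals); Smg6 fell by 0.61 (adjusted p = 0.00282) and Smg1 rose by 0.26 (adjusted p = 0.0438). With difamilast none of the 17 passed in edgeR, and 5 had an unadjusted p under 0.05.

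**Figure D5:**
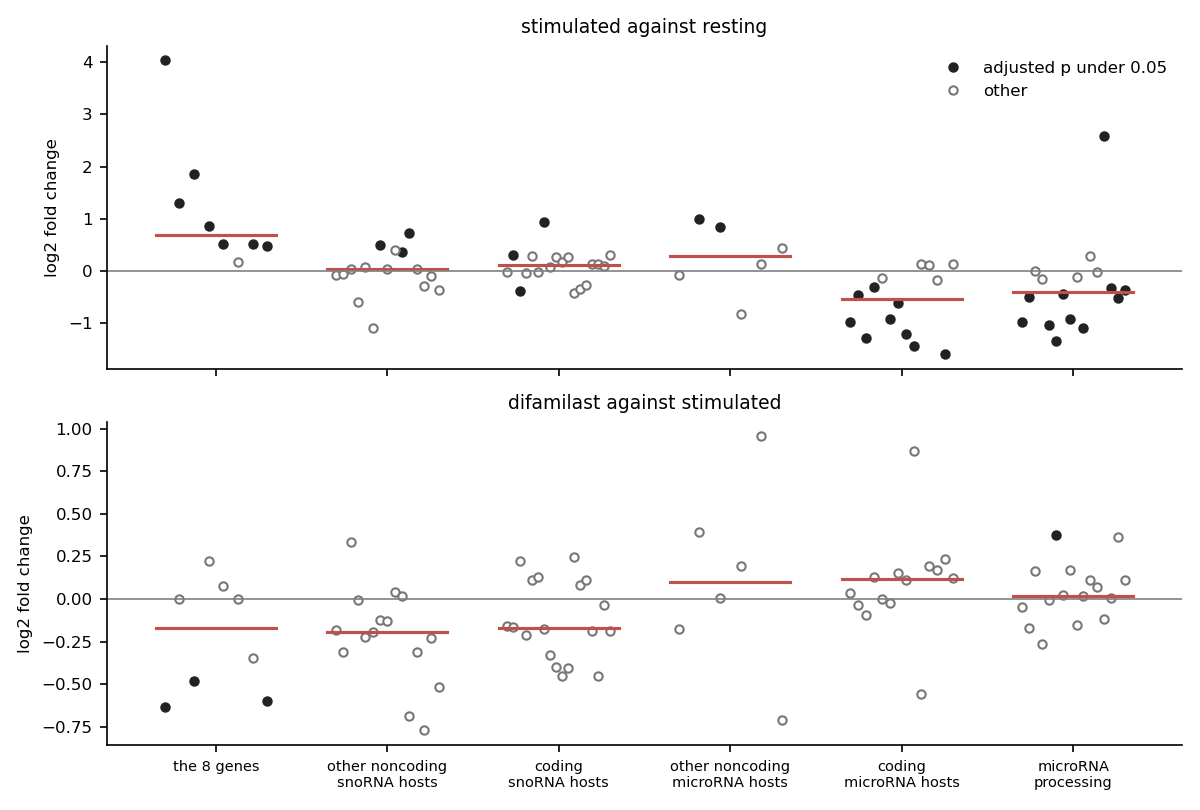
Log2 fold changes with TMM scaling of the 8 genes and of 5 other groups, stimulated over resting above and difamilast over stimulated below; each point is a gene, filled where the adjusted p is under 0.05, and red lines are group medians. With stimulation the medians are 0.69 for the 8 genes and -0.53 for coding microRNA hosts, and with difamilast 3 of the 8 genes are filled and below 0.

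Known targets of the hosted microRNAs were counted as well, with no measure of the microRNAs themselves. Of 14 miR-155 targets, 5 rose and 5 fell with stimulation (3 and 6 under library totals). Socs1, the suppressor of cytokine signalling, rose by 3.26 on the log2 scale (adjusted p = 6.54e-11), Peli1 rose by 1.43 (adjusted p = 1.89e-08) and Fos fell by 2.12 (adjusted p = 1.7e-08). With difamilast 4 of the 14 rose and none fell, beside 2.21% of tested genes that rose. Their median log2 fold change was 0.17, and 7 of the 14 had a value below 0. An unadjusted p under 0.05 was reached by 7, of which 2 were lower. Fosl2, an AP-1 subunit gene, had 304, 314 and 295 CPM in difamilast, 107, 93.8 and 118 CPM in stimulated and 182, 132 and 137 CPM in resting libraries. Its difamilast libraries were above all others, and its stimulated libraries below all others (log2 fold change 1.52 with difamilast, adjusted p = 5.11e-06). Fos rose by 1.76 (adjusted p = 3.15e-06) and Ets1 by 0.95 (adjusted p = 3.24e-05) with difamilast, and Socs1 had a value of -0.05 (adjusted p = 0.903).

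Of 11 miR-17-92 targets, 3 rose and 3 fell with stimulation (1 and 6 under library totals), and 3 rose with difamilast and none fell. With difamilast 4 of the 11 had a value below 0, and the median was 0.12. The adhesion protein gene Thbs1 had 1520, 1480 and 1420 CPM in difamilast, 269, 269 and 351 CPM in stimulated and 544, 353 and 320 CPM in resting libraries, with difamilast libraries above all others. Its log2 fold change with difamilast was 2.31 (adjusted p = 2.24e-06). Bcl2l11, which encodes the death-promoting protein BIM, rose by 0.73 (adjusted p = 0.000267) and Cyld by 0.46 (adjusted p = 0.0107). Of 9 miR-15 and miR-16 targets, 3 rose with stimulation and 1 fell (3 and 4 under library totals), led by the cell cycle genes Cdk6 (2.86, adjusted p = 2.44e-11) and Ccnd2 (1.93, adjusted p = 3.46e-09) and the survival gene Bcl2 (1.19, adjusted p = 7.58e-05). With difamilast, where Dleu2 fell, none of these 9 passed in edgeR, 1 had an unadjusted p under 0.05, and their median was 0.00. Of 5 tested miR-22 targets, Tet2 (1.99, adjusted p = 4.36e-09) and Cdkn1a (1.70, adjusted p = 1.72e-06) rose with stimulation, and Sirt1 rose with difamilast (0.70, adjusted p = 0.0281). Under library totals 2 of these 5 were called higher and 2 lower with stimulation. These target lists were drawn from general knowledge and some genes stand in more than 1. Whether any target moved through its microRNA was not tested.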

How the data were processed

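The authors deposited a single table of raw read counts per gene symbol for 9 bulk libraries, seen as whole numbers with unequal totals. Per the labels' protocols, poly(A) RNA was captured on oligo-dT beads, reverse-transcribed, tailed, amplified by TAS-Seq, fragmented and sequenced on a NovaSeq; molecular identifiers are not mentioned, and amplification copies may be counted. Cutadapt 4.1, Bowtie2 2.4.5 and the build GRCm38 are named, per the submitters' processing notes; no source used here gives the counting tool, its annotation or its strand setting.

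Counts were tested with edgeR 4.0.16 (R 4.3.3, limma 3.58.1): TMM scaling, filterByExpr (minimum count 10, minimum total 15), a robust quasi-likelihood model of the 9 libraries by group (residual degrees of freedom 6), and Benjamini-Hochberg adjustment over 21341 genes. The steps were tested on simulated data. Ratios of counts were compared by exact permutation. Positions come from GENCODE vM21, sequences from RefSeq GRCm38.p6. Similarity used log2 CPM with a prior count of 2 and candidates of at least 10 CPM. Named genes are the 8, genes overlapping them, up to 3 called genes with the smallest p from each of 21 lists, and the 3 genes most similar to each of the 8; the rest are counted, and a few that the rule names are not reported here. The 8 genes and the lists were chosen with earlier results of these data known. After values were seen, 4 genes that GENCODE vM21 shows with no small RNA gene inside (Mirt1, Mirt2, Nfat5 and Npm1) were taken out of the host lists. The tested hosts Snhg4, Snhg16, Mir100hg and Mir181a-1hg were not found under these symbols in that annotation, so they could not be checked this way. Alternatives were RLE scaling, DESeq2 1.42.0, limma-voom, no filter, only the 2 groups compared, a replicate block, a lowess length trend (span 0.3) removed, libraries thinned to 6261446 counts, and each library left out. Library totals alone, upper quartile scaling and small RNA entries added to their host were chosen after seeing the data. Snhg7, Snhg18, Mir223hg and Norad, among other listed symbols, were not analysed here.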

Additional observations from a re-analysis of the deposited data

How the results depend on the processing

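Over 20 alternatives for each of the 8 genes in 3 comparisons (480 values), 440 kept direction and side of the threshold, 22 lost the call, 2 gained it and 16 turned sign. With library totals alone, log2 fold changes with stimulation were -0.012 for Malat1, -0.349 for Gas5 and -0.049 for Dleu2, and in difamilast against resting cells -0.33 for Gas5 and -0.33 for Snhg1. The other reversals were around 0, all in difamilast against stimulated cells: Mir22hg with limma-voom (-0.004), with small RNA entries added (-0.005), and without stimulated replicate 1 (-0.027) or difamilast replicate 3 (-0.048; -0.048 to 0.042 with any library left out); Gas5 with limma-voom (-0.01), only 2 groups (-0.001), length trend removed (-0.017), thinned libraries (-0.02), and without stimulated replicate 1 (-0.053) or difamilast replicate 3 (-0.041; -0.053 to 0.046 with any library left out); and Malat1 with the length trend removed (-0.008). The cause was not tested.

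Genes called with difamilast against stimulated cells numbered 735, and 1107 with DESeq2, 1351 without a filter, 1673 with only 2 groups, 397 with thinned libraries, and 347 to 1693 with a library left out, with 1693 without resting replicate 1, 1138 without difamilast replicate 3, and 347 to 446 without any other difamilast or stimulated library. Thinned libraries gave 3474 calls with stimulation, against 6770, and 3394 for difamilast against resting cells, against 7001, where library totals gave 10979. Calls with stimulation split 3273 higher and 3497 lower, but 1326 and 8749 with library totals; for difamilast against resting cells, 3501 and 3500, but 1507 and 9472. With difamilast against stimulated cells 64.1% of calls were higher, but 51% without a filter, 49.7% with only 2 groups, 51.4% without resting replicate 1, 74.4% without difamilast replicate 2 and 47.5% without difamilast replicate 3. For the 15 other noncoding snoRNA hosts, calls with stimulation were 3, but 9 with library totals, 1 without a filter, 0 with thinning and 1 to 4 with a library left out. With difamilast they were 0, but 1 with DESeq2, limma-voom or no filter, 2 with only 2 groups, and 0 to 2 with a library left out. For difamilast against resting cells they were 3, but 10 with library totals, 5 with limma-voom and 2 to 5 with a library left out. Thinning moved the log2 ratio of Snhg1 to Gas5 to 0.21 with stimulation and -0.17 with difamilast, and that of Dleu2 to Trim13 to -0.97 with difamilast.

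Correlations of deviations from the group mean ran from -0.40 to 0.42 between same-numbered libraries of different groups. Between differently numbered libraries they ran from -0.53 to 0.59. With 3 libraries a group, these values cannot tell whether the numbers pair the samples. With the replicate block, 6489, 700 and 6652 genes were called, against 6770, 735 and 7001, and no call among the 8 genes changed. Most small RNA entries had too few reads to pass the filter on low counts.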
